A study of Mus musculus with 5 samples.

Results

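The genes described here encode subunits of channels that open when glutamate, GABA, glycine, ATP, or serotonin binds to them, and they were followed in sympathetic neurons with and without *Hif1a*. The rule for the members uses the symbol alone: protein-coding genes whose mouse symbol starts with Gria, Grik, Gabra, Gabrb, Gabrg, Gabrd, Gabre, Gabrq, Glra, Glrb, P2rx, or Htr3, together with the Grin and Grid genes. In all, 39 of the 20224 genes of the counts table were members. They comprised 4 AMPA, 5 kainate, 7 NMDA, and 2 delta receptor genes, 11 GABA-A, 2 glycine, and 5 P2X receptor genes, 2 genes of the serotonin receptor channel (5-HT3), and *Grid2ip*. *Grid2ip* matches the rule by its letters but encodes an intracellular scaffold protein, delphilin, and not a channel. A further 9 genes of the GENCODE M21 annotation match the rule and were not analysed here: *Gabrd*, *Gabrg1*, *Gabra6*, *Gabre*, *Glra1*, *Glra2*, *Glra4*, *P2rx5*, and *P2rx7*.

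Bulk RNA-seq was performed on E14.5 embryos of non-diabetic pregnancies, with 100 sorted cells per library from the stellate ganglia and the thoracic sympathetic chain. Control libraries (replicates 5 and 6, n = 2) came from *Hif1a* loxP/+; *Isl1Cre*; *tdTomatoAi14*; *Prph-eGFP* embryos, and *Hif1aCKO* libraries (replicates 3, 4, and 5, n = 3) from *Hif1a* loxP/loxP; *Isl1Cre*; *tdTomatoAi14*; *Prph-eGFP* embryos. *Isl1Cre* is a knock-in that removes exon 2 of floxed *Hif1a* in every *Isl1*-expressing lineage, so both groups carried the Cre allele in place of an *Isl1* copy, controls lost *Hif1a* function from their floxed allele as well, and sorted cells were positive for eGFP under the peripherin promoter and for tdTomato. No label gives the litter or culture behind a library, so the p-values below measure only the spread between these libraries.

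Receptors for glutamate are tetramers: AMPA and kainate receptors carry fast excitation, whereas NMDA receptors also need glycine or serine and a prior depolarisation to open. GABA-A and glycine receptors are pentameric chloride channels, 5-HT3 receptors are pentameric cation channels, and P2X receptors are trimers opened by ATP. Fast transmission in sympathetic ganglia runs mainly through nicotinic acetylcholine receptors, which are outside these families, but sympathetic neurons are also known to respond to GABA and to ATP.

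Total counts ranged from 8254211 to 9700887 per library. The deletion itself could not be read, because reads were counted over the whole of *Hif1a*: the gene had 1835 ± 355 normalized counts (SD, n = 2) in controls and 2213 ± 499.4 (SD, n = 3) in *Hif1aCKO*. *Isl1*, the gene that drives Cre, was at 12577 and 14019 normalized counts in controls and between 7800 and 8722 in *Hif1aCKO*. All 10 listed sympathetic neuron markers were detected, and their summed normalized count was 59756 and 74927 in controls against 53075 to 56528 in *Hif1aCKO*. Of other cell types, motor neuron markers (3 of 6 in the table) summed to 16.5 to 79.2 normalized counts, endothelial markers (3 of 6) to 9.65 to 54.5, mesenchyme markers (5 of 8) to at most 26.3, and the erythroid marker *Alas2* (1 of 7) to 8.33 and 13.9 in controls and 15.0 to 31.0 in *Hif1aCKO*. Of the 7 spinal interneuron markers, 0 were in the table. Chromaffin markers summed to 16116 to 21996, mostly through *Cartpt* and *Chgb*, which are not confined to chromaffin cells, whereas *Pnmt*, which makes adrenaline, was at 51.0 or less. This sum joins markers of opposite direction. *Cartpt* was at 7650 and 6243 in controls and higher in *Hif1aCKO*, at 11310 to 17992. *Chgb*, at 5514 and 8695 in controls and 776.3 to 4732 in *Hif1aCKO*, was lower, as was *Pnmt*, and *Chga* and *Penk* overlapped. *Hif1aCKO* replicate 3 stood apart: its Schwann cell precursor and glia markers (5 of 8 in the table) summed to 1199 normalized counts against 30.6 to 55.2 in the other 4 libraries, mostly through *Fabp7* with 926 counts.

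Among the receptor genes, a few subunits held most of the signal and most members were near the limit of detection. Only 8 members reached a mean of 50 normalized counts, among them *Gria1*, *Gria2*, *Gria4*, *Grik1*, *Grik2*, and *P2rx4*. Another 31 were under that level, 14 of them under 10, and 23 had 3 counts or fewer in at least 1 library. A total of 26 members passed the filter on low counts and were tested, and the other 13 included *Grik3*, *Grin2a*, *Grin2b*, *Grin2c*, *Grin2d*, *Grid1*, *Gabra4*, *Gabrg3*, *P2rx1*, *P2rx6*, *Htr3a*, and *Grid2ip*. To compare genes, counts were divided by the merged exon length in kilobases and by the effective library size (CPM per kilobase), and this is called the level per length below. On this scale *Gria4* was at 12.99 ± 2.10 (SD, n = 5), *Gria2* at 8.24 ± 1.21 (SD, n = 5), and *Gria1* at 3.13 ± 1.52 (SD, n = 5). Against the other genes tested these were middle levels: 71.9% of the 15032 tested genes lay below *Gria4*, and 39.6% lay below *Gria1*. *Gria4* and *Gria2* did not overlap, since the lowest library of *Gria4* was at 11.2 and the highest of *Gria2* at 9.90. *Gria1* was followed by *Htr3b*, *Grik1*, *P2rx3*, *Grik2*, *Glrb*, *P2rx4*, *Grik5*, *Grik4*, *Gabra5*, and *Gabra3*, with mean levels from 2.15 down to 0.531, and neighbours in this order overlapped in their ranges over libraries. *Htr3b* owed its place to control replicate 6.

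**Figure D1:**
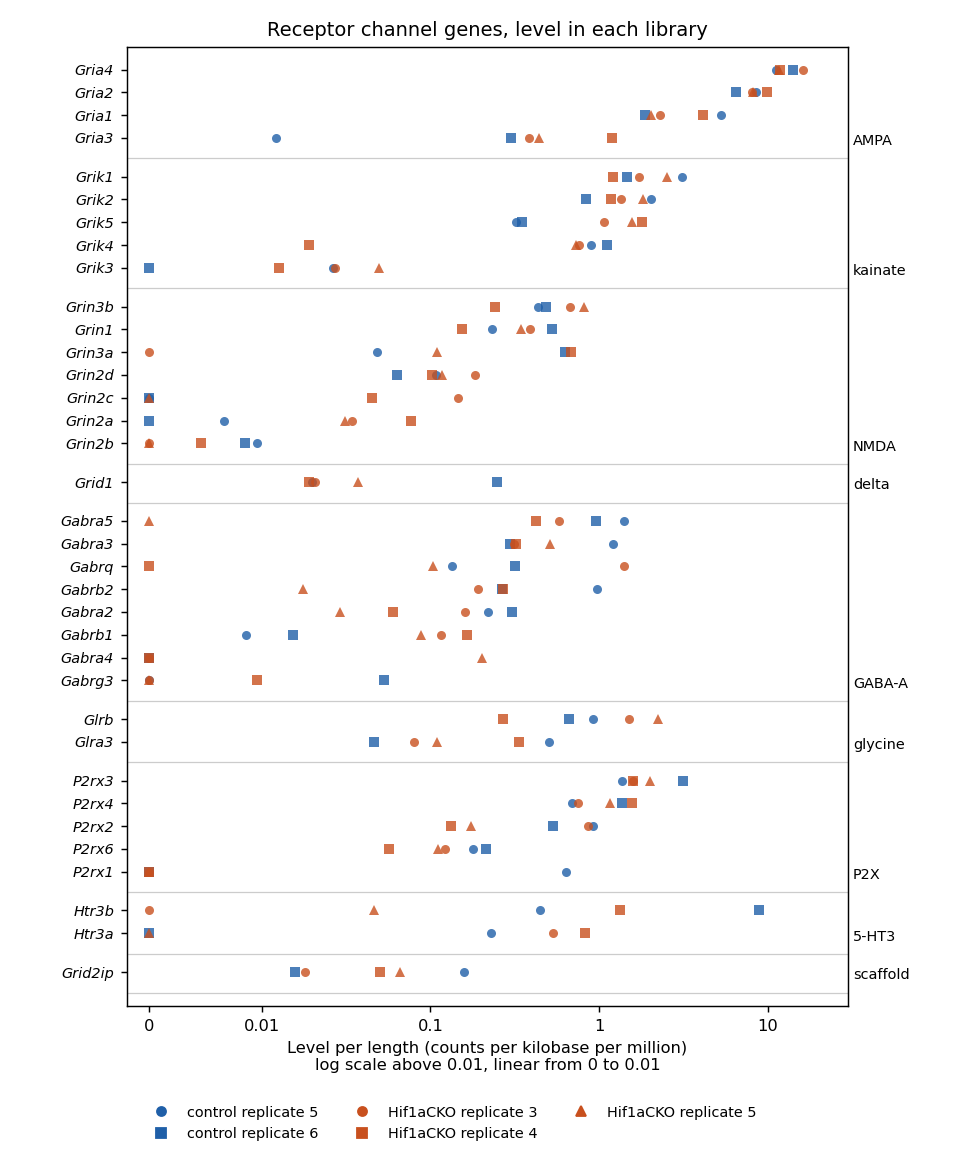
Level per length of 35 members in each of the 5 libraries, on an axis that is logarithmic above 0.01 and linear from 0 to 0.01, with genes ordered by mean level within each family. Libraries that coincide hide each other, above all at 0. *Gria4* and *Gria2* lie to the right with their libraries close together, whereas *Grin3a* and *Htr3b* spread widely between libraries of both groups.

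Among the AMPA receptor genes, *Gria4* and *Gria2* made up most of the summed level per length in every library. *Gria2* (chr3:80681450-80802835, minus strand, GRCm38) encodes the subunit that keeps calcium out of AMPA channels once its transcript is edited. It was at 1162 and 886 normalized counts in controls and at 1097, 1347, and 1113 in *Hif1aCKO*, so the groups overlapped. *Gria4* (chr9:4417896-4796234, minus strand), whose subunit gives fast-closing channels, was at 615.6 and 778 normalized counts in controls and at 891, 651, and 645 in *Hif1aCKO*. Its level per length was above that of *Gria2* in all 5 libraries, by 1.19 to 2.17 times. *Gria1* (chr11:57011387-57330244, plus strand) was at 280.2 and 99.2 normalized counts in controls and at 121, 219.7, and 108 in *Hif1aCKO*, a spread of 2.82 times between libraries that was as wide within controls as between groups. *Gria3* (chrX:41400854-41678601, plus strand) was the lowest AMPA gene, at 1.04 and 26.0 normalized counts in controls and at 33.2, 102.9, and 37.95 in *Hif1aCKO*. The groups of *Gria3* did not overlap, but control replicate 6 was nearer to *Hif1aCKO* replicates 3 and 5 than to the other control. On average *Gria4* held 52.5% of the summed AMPA level, *Gria2* 33.2%, *Gria1* 12.5%, and *Gria3* 1.84%.

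The kainate receptor genes fall into those whose subunits form channels alone (*Grik1*, *Grik2*, *Grik3*) and those that bind kainate with high affinity but need a partner of the other kind (*Grik4*, *Grik5*). *Grik1* (chr16:87895900-88290265, minus strand) was at 182 and 86.3 normalized counts in controls and at 100.8, 70.9, and 149 in *Hif1aCKO*. *Grik2* (chr10:49094833-49788766, minus strand) was at 234 and 96.5 in controls and at 156.5, 136, and 210.2 in *Hif1aCKO*. In both genes control replicate 5 was the highest library and the groups overlapped. The level per length of *Grik1* was above that of *Grik2* in all 5 libraries, by 1.03 to 1.76 times, although their ranges over libraries overlapped. *Grik3* was at most 3.89 normalized counts in any library. The high-affinity subunits differed in direction: *Grik4* was at 46.9 and 58.4 normalized counts in controls and at 39.7, 0.999, and 37.95 in *Hif1aCKO*, and *Grik5* at 14.6 and 15.8 in controls and at 48.2, 80.9, and 71.0 in *Hif1aCKO*. Each had all 3 *Hif1aCKO* libraries on the same side of both controls, but *Hif1aCKO* replicate 4 was much lower for *Grik4* than the other libraries. As a share of the summed kainate level per length, *Grik5* made up 5.06% and 9.25% in controls and 21.7%, 42.6%, and 23.5% in *Hif1aCKO*.

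NMDA receptor genes were low throughout. *Grin1*, which encodes the subunit that every NMDA receptor needs, was at 19.8 and 44.5 normalized counts in controls and at 33.2, 12.98, and 29.2 in *Hif1aCKO*. The level per length of *Gria2* exceeded that of *Grin1* by 12.4 to 64.7 times. Of the glutamate-binding subunits, *Grin2b* was at most 2.08 normalized counts in any library, so that none of its libraries exceeded 3 counts, and *Grin2a*, *Grin2c*, and *Grin2d* reached at most 11.98, 6.43, and 10.7. The glycine-binding *Grin3a* was uneven, with 5.21 and 67.7 normalized counts in controls and 0, 72.9, and 11.7 in *Hif1aCKO*. *Grin3b* was between 6.99 and 23.35 normalized counts. However, 32.1% of its exonic bases are shared with the antisense gene *Tmem259*, which was at 93.3 to 150.8 normalized counts. Likewise, 13.5% of the exonic bases of *Grin1* are shared with *Grin1os*. Strand is not said to have been used in counting, and how reads in these shared bases entered the counts was not tested. Of the delta receptor genes, whose proteins link synapses through cerebellins, *Grid1* stayed at or under 12.99 normalized counts.

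GABA-A receptors are usually built of alpha, beta, and gamma subunits, and their genes lie in clusters. No alpha gene reached a mean of 50 normalized counts. *Gabra5* (chr7:57407672-57510059, minus strand) was at 36.5 and 25.0 normalized counts in controls and at 15.0, 11.0, and 0 in *Hif1aCKO*. *Gabra2* (chr5:70957597-71095849, minus strand) was at 14.6 and 20.4 in controls and at 10.7, 3.99, and 1.95 in *Hif1aCKO*. In both alpha genes each *Hif1aCKO* library was below both controls. *Gabra3* was at 41.7 and 10.2 normalized counts in controls and at 10.7, 11.0, and 17.5 in *Hif1aCKO*, and control replicate 5 alone stood apart there. The beta subunit gene *Gabrb2* (chr11:42419757-42629028, plus strand) was at 54.2 and 14.8 normalized counts in controls and at 10.7, 15.0, and 0.973 in *Hif1aCKO*, with overlapping groups. *Gabrb1* (chr5:71658113-72149037, plus strand) was at 1.04 and 1.86 normalized counts in controls and at 13.9, 20.0, and 10.7 in *Hif1aCKO*. *Gabrq*, which encodes the theta subunit, was highest in *Hif1aCKO* replicate 3 at 65.4 normalized counts against at most 14.8 in the others. That library is the one with the glial markers, and their part in the *Gabrq* value was not tested.

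Glycine, P2X, and 5-HT3 receptor genes were also low. *Glrb*, which anchors glycine receptors to gephyrin, was at 37.5 and 26.9 normalized counts in controls and at 61.1, 11.0, and 91.5 in *Hif1aCKO*, and *Glra3* was between 3.71 and 40.6. Of the ATP-gated channels, *P2rx4* (chr5:122707544-122729738, plus strand) was at 42.7 and 84.4 normalized counts in controls and at 46.1, 95.9, and 71.0 in *Hif1aCKO*. Macrophages also use *P2rx4*, and *Csf1r*, the macrophage marker in the table (1 of 5 listed), was at 32.3 and 63.1 in controls and at 83.6, 111.8, and 89.5 in *Hif1aCKO*. The part of macrophages in the *P2rx4* counts was not tested. *P2rx3*, known best from sensory neurons, had 33.3 and 77.0 normalized counts in controls and 38.6, 38.9, and 48.65 in *Hif1aCKO*. Its level per length was above that of *P2rx2*, its usual partner, in all 5 libraries, by 1.48 to 12 times. *P2rx1* was detected in control replicate 5 alone, with 14.6 normalized counts. *Htr3b*, whose subunit does not form a channel without that of *Htr3a*, was at 9.37 and 188 normalized counts in controls and at 0, 28.0, and 0.973 in *Hif1aCKO*. *Htr3a* was at 0 in control replicate 6, where *Htr3b* was highest.

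Summed over each family, AMPA and GABA-A receptor genes held most of the level per length. The AMPA sum was 23.9 ± 1.57 (SD, n = 2) in controls and 25.4 ± 2.67 (SD, n = 3) in *Hif1aCKO*, between 30.9% and 47.7% of the total of all families. For GABA-A genes the sum was 25.1 and 30.4 in controls and 22.4, 18.02, and 23.3 in *Hif1aCKO*, so that every *Hif1aCKO* library was below both controls. Few genes held most of this sum, so it does not show a fall across the family. Of the 9 GABA-A genes tested, 2 were higher and 7 lower, and 0 were called. Among single genes, 12.9% of all tested had groups that did not overlap in each direction. P2X genes also summed to less in *Hif1aCKO*, with 3.8 and 5.28 in controls and 3.31 to 3.43 in *Hif1aCKO*, but this rests on *P2rx1*, detected in control replicate 5 alone. Without that gene the sum was 3.17 in that control, below all 3 *Hif1aCKO* libraries, and the groups overlapped. The sums of the kainate, NMDA, glycine, and 5-HT3 genes overlapped between groups. No test was applied to the sums: with 2 libraries against 3, an exact permutation test cannot give a p below 0.1. In bulk libraries, fewer cells that express a gene and less RNA per cell cannot be told apart. The sympathetic neuron markers and *Isl1* moved the same way as the GABA-A sum, and their part in it was not tested.

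**Figure D2:**
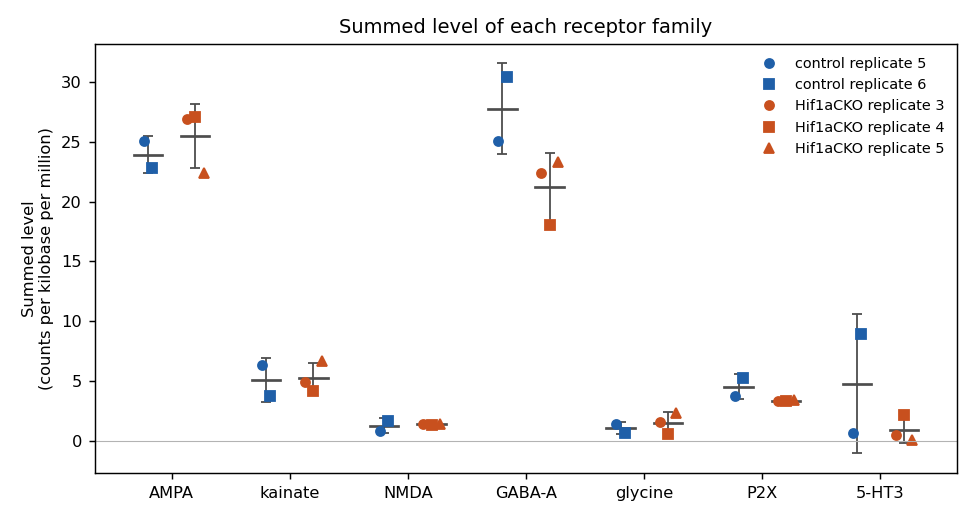
Summed level per length of the genes of 7 receptor families in each library, with the group mean as a bar and the SD as whiskers (n = 2 control, n = 3 *Hif1aCKO*). The groups do not overlap for GABA-A genes or, with *P2rx1* included, for P2X genes, and the AMPA sums of both groups lie between 22.4 and 27.1.

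Within the GABA-A family, the 5 alpha genes together were at 2.85 and 2.42 in controls and at 1.07, 1.503, and 0.771 in *Hif1aCKO*, on the scale of level per length. This sum was 2.63 ± 0.304 (SD, n = 2) against 1.11 ± 0.368 (SD, n = 3), and the groups did not overlap. The alpha genes each had few counts, so that their sum rests on different genes in different libraries. This sum was a small part of the family, with a mean of 1.72 over all libraries against 23.85 for all GABA-A genes. It was chosen after its values were seen.

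No member passed the test between *Hif1aCKO* and control. The call needed an adjusted p under 0.05 (edgeR quasi-likelihood test with Benjamini-Hochberg adjustment over 15032 genes), a log2 fold change beyond 0.3, and a mean of at least 50 normalized counts. By this rule 0 of the 26 tested members were called, as were 0% of all genes tested. Only the 8 tested members with that mean could be called, whatever the p of the others. The smallest adjusted p over the 26 was 0.5985 by the same edgeR test, so none passed that threshold either. DESeq2 called 0 members as well, and 0.388% of the genes it tested. At an unadjusted p under 0.05 there were 2 of 26 members, a share near the 7.67% of all genes tested. Both, *Grik5* and *Gabrb1*, were higher in *Hif1aCKO*, where 3.83% of all genes lay, and 3.85% of all genes were lower at that p with no member among them. Groups that did not overlap were seen in 3 members that were higher (*Gria3*, *Grik5*, *Gabrb1*) and 4 that were lower (*Grik4*, *Gabra2*, and *Gabra5* among them), beside 12.9% of all genes in each direction, and these shares are near the background too. By sign, 10 tested members were higher and 16 lower, and the median log2 fold change was -0.34 beside 0.012 over all genes tested. Over the same 26 members this median was -0.17 without control replicate 5 and 0.029 without control replicate 6. Leaving out a library also changes which members pass the filter: over those tested then, it was 0.25 among 31 members without control replicate 5, 0.28 among 30 without control replicate 6, and -0.10 among 23 without *Hif1aCKO* replicate 4.

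**Figure D3:**
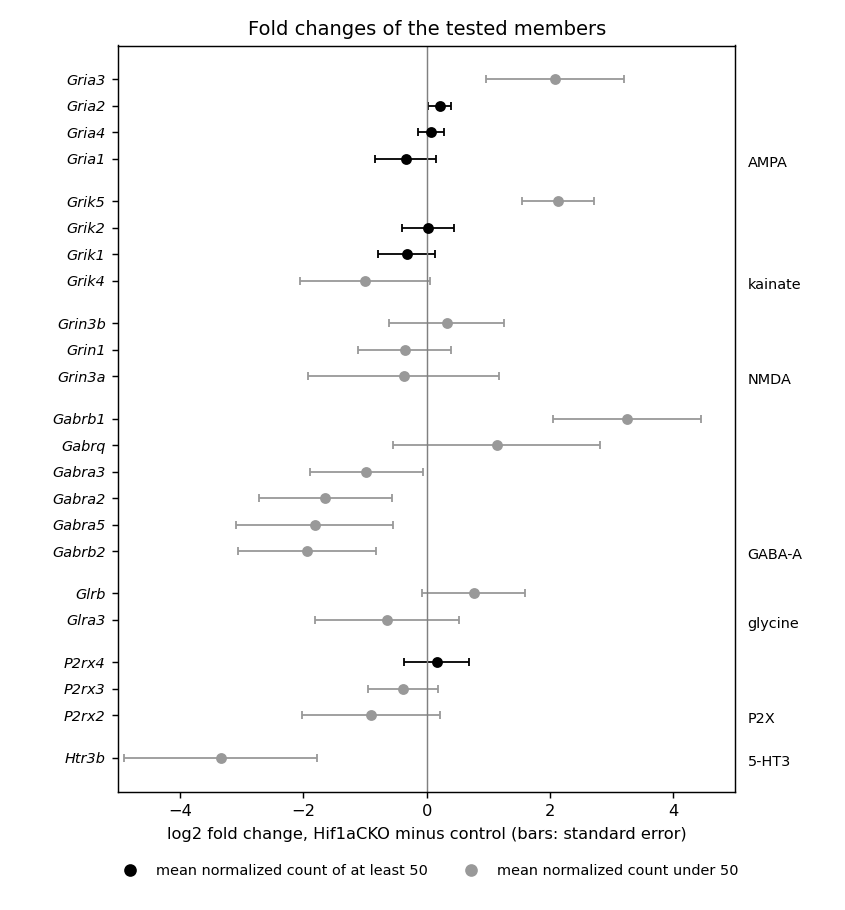
Log2 fold change (*Hif1aCKO* minus control, edgeR) of 23 tested members by family, with standard errors as bars, in black for the 6 of them with a mean of at least 50 normalized counts and in grey for the others. These 6 lie between -0.34 and 0.21, and the wide changes belong to genes with few counts.

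*Grik5* (chr7:25009849-25072346, minus strand) had the smallest p of the members, rank 156 among all genes tested. It had 15.2 ± 0.838 normalized counts (SD, n = 2) in controls and 66.7 ± 16.7 (SD, n = 3) in *Hif1aCKO*. Its mean over all libraries, 46.1, was under the 50 that a call needed. The log2 fold change was 2.13 (SE 0.59), which was not called by the edgeR quasi-likelihood test after Benjamini-Hochberg adjustment (adjusted p = 0.5985), and the DESeq2 adjusted p was 0.138. Between 1.97 and 2.31 was left of it when any library was omitted. In counts, 31 reads over both controls stood against 199 over the *Hif1aCKO* libraries, a depth-corrected ratio of 4.42 with a 95% exact interval of 3.02 to 6.68 that covers counting error only. The sum of the sensory neuron markers (6 of 11 in the table) was 95.8 and 96.5 normalized counts in controls and 120.1 to 200.7 in *Hif1aCKO*, mostly through *Neurod1*. Of these markers *Neurod1* and *Tlx3* had higher counts in every *Hif1aCKO* library than in both controls, the other 4 overlapped, and none of the 3 that were tested had an unadjusted p under 0.05. Their part in the *Grik5* difference was not tested.

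*Gabrb1*, a beta subunit gene, had 1.45 ± 0.575 normalized counts (SD, n = 2) in controls and 14.9 ± 4.70 (SD, n = 3) in *Hif1aCKO*. Only 3 reads in both controls stood against 44 in *Hif1aCKO*, a depth-corrected ratio of 10.1 with a 95% exact interval of 3.24 to 50.8 that covers counting error only. The gene passed the filter on low counts through the *Hif1aCKO* libraries alone, so it could be tested only because it was high there, and it was not tested when at least 10 counts were required in every library. The fitted log2 fold change was 3.24 (SE 1.203), with a Benjamini-Hochberg adjusted p of 0.621 by the quasi-likelihood test of edgeR. This value depends on the prior count, because controls were at the floor of 3 counts. *Gabra4*, which starts beside it on the other strand and shares 46 exonic bases with it, was detected in *Hif1aCKO* replicate 5 alone, with 10.7 normalized counts.

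*Htr3b* and *Gria3* had the next smallest p. *Htr3b* had a log2 fold change of -3.34 (SE 1.56) and a Benjamini-Hochberg adjusted p of 0.679 by the quasi-likelihood test of edgeR. The log2 fold change was 0.035 without control replicate 6. Control replicate 6 and *Hif1aCKO* replicate 4, from different groups, were its highest libraries, as they were for *Grin3a*. For *Gria3* the log2 fold change was 2.08 (SE 1.11), with an adjusted p of 0.705 by the same edgeR test and adjustment, and it ranged from 1.15 without control replicate 5 to 5.63 without control replicate 6. Members with a mean of at least 50 normalized counts had smaller log2 fold changes, of -0.34 (SE 0.50) for *Gria1*, 0.21 (SE 0.19) for *Gria2*, and 0.064 (SE 0.21) for *Gria4*.

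**Figure D4:**
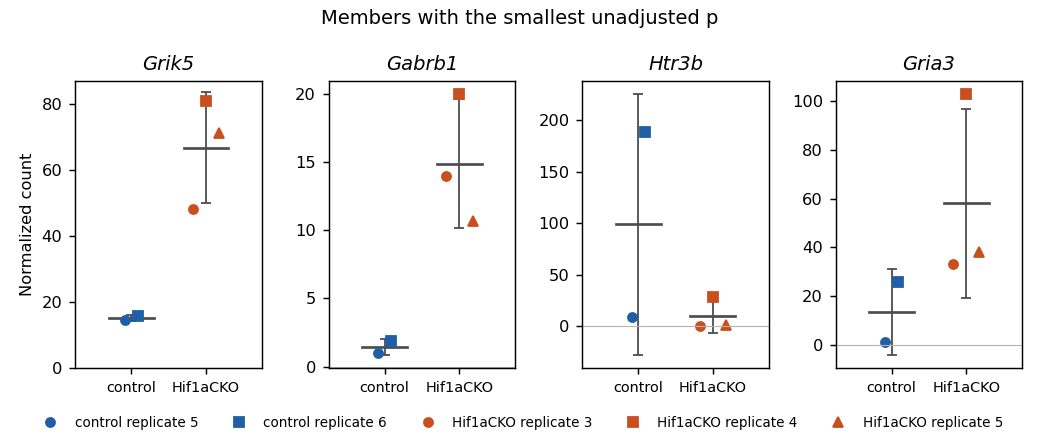
Normalized counts in each library of 4 tested members with the smallest unadjusted p, with group means as bars and SD as whiskers (n = 2 control, n = 3 *Hif1aCKO*), each on its own axis. *Grik5* and *Gabrb1* separate the groups, and *Htr3b* and *Gria3* rest on a high or low library.

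The start regions of *Grik5* and *Gabrb1*, the pair of members with an unadjusted p under 0.05, are shown because HIF-1, the factor whose alpha subunit *Hif1a* encodes, binds DNA at sites that hold the letters ACGTG or GCGTG. The windows are those of RefSeq on GRCm38.p6, from 250 bases before to 50 bases after an annotated start, 5′ to 3′ on the strand of the gene, with matches to these letters on either strand in capitals (CACGT and CACGC being their reverse complements, and overlapping matches counted each). The *Grik5* window (chr7:25072320-25072619, minus strand) held 0 matches. The windows of *Gabrb1* (chr5:71657671-71657970 and chr5:71699682-71699981, plus strand) held 2 matches, at positions 170 and 234 from the 5′ end, and 1 match, at position 74.
Grik5: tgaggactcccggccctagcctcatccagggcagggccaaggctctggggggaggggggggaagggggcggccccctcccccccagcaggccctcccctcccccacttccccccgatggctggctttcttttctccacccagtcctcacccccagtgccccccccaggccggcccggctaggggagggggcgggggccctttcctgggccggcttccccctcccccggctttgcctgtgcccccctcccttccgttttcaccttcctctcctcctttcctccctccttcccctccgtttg
Gabrb1, upstream start: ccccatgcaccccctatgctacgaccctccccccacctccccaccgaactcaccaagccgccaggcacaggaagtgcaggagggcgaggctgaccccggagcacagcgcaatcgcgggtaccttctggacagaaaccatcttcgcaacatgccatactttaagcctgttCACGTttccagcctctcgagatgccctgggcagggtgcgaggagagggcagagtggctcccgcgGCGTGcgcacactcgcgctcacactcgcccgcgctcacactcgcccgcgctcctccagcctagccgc
Gabrb1, downstream start: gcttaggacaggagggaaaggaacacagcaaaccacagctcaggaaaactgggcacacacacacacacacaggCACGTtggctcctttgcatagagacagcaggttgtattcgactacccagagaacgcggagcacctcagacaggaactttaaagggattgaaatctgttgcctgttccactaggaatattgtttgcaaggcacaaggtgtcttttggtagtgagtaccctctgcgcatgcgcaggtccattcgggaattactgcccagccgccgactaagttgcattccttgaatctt

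Of the members, 25 matched a RefSeq window by symbol and 14 did not. At least 1 match was found for 13 of these 25 members (52%), in 15 of their 30 windows (50%), and in 43.8% of all 32851 windows of the same length. These letters are short enough to be present in many windows, and a match is a description of the sequence.

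Genes that act with the receptors were read from lists of the pathway. Of the AMPA and kainate auxiliary subunits, 12 of 16 were tested, with 4 higher and 8 lower, 2 of them at an unadjusted p under 0.05, beside 7.67% of all genes, and 0 called. *Cnih2*, which carries AMPA receptors to the surface, was at 57.3 and 65.85 normalized counts in controls and at 94.4, 151.8, and 118.7 in *Hif1aCKO* (log2 fold change 0.98, SE 0.39). *Shisa9*, which alters how AMPA receptors desensitise, was at 61.45 and 15.8 in controls and at 3.22, 0, and 0 in *Hif1aCKO*, and it passed the filter on low counts through the controls alone. In the excitatory scaffolds, 20 of 22 were tested, with 13 higher and 7 lower. Among them *Shank2*, a postsynaptic scaffold gene, was at 122 and 121.5 normalized counts in controls and at 178, 249.6, and 219.9 in *Hif1aCKO* (log2 fold change 0.83, SE 0.29), *Dlg1*, which encodes the scaffold SAP97, had a log2 fold change of 1.15 (SE 0.47), and *Lin7a* had one of -0.45 (SE 0.18). These 3 of 20 had an unadjusted p under 0.05, beside the same 7.67% of all genes, and none was called.

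Of the inhibitory scaffold and trafficking genes, 15 of 19 were tested, with 5 higher and 10 lower, a median log2 fold change of -0.035, and 0 at an unadjusted p under 0.05. Chloride transport genes decide whether GABA depolarises a neuron, and 13 of 14 were tested, with 7 higher and 6 lower. *Slc12a2*, which brings chloride into the cell, was at 159 and 170.7 normalized counts in controls and at 248.8, 210.7, and 299.7 in *Hif1aCKO* (log2 fold change 0.62, SE 0.28). *Stk39*, a kinase that activates this transporter, was at 350 and 363 in controls and at 272, 208, and 209 in *Hif1aCKO* (log2 fold change -0.63, SE 0.24). *Oxsr1*, another kinase gene of the list, went the other way from *Stk39*. It was at 225 and 242.1 in controls and at 242.3, 370.5, and 329.9 in *Hif1aCKO* (log2 fold change 0.43, SE 0.27). The groups did not overlap in *Slc12a2*, *Stk39*, or *Oxsr1*, as for 12.9% of all genes in each direction. None of them was called (adjusted p = 0.661, 0.621, and 0.728, edgeR quasi-likelihood test with Benjamini-Hochberg adjustment). *Stk39* was the only gene of the list with an unadjusted p under 0.05. Of the genes for transmitter supply and removal, 8 of 17 were tested, with 2 higher and 6 lower, and of the G-protein-coupled receptors for the same transmitters 6 of 17, with 3 in each direction. Neither list had a gene at an unadjusted p under 0.05. *Gabrr2*, the rho subunit gene in the table, was at 0 in 1 library of each group. Over all these lists 0 genes were called by edgeR and 0 by DESeq2.

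Variation between libraries was wide for these genes. The 8 members with a mean of at least 50 normalized counts had a median coefficient of variation of 29.5% over the 5 libraries, from 14.7% to 48.4%. The median was 20.7% for all 10842 tested genes with a mean of at least 50. That set was not matched to the members in level, so the part of the count level in the difference was not tested. *Gria4* and *Gria2* were the steadiest, since their highest library exceeded the lowest by 1.45 and 1.52 times, whereas this ratio was 2.82 for *Gria1* and 2.57 for *Grik1*. At 100 cells per library, a value of 0 does not show that a receptor gene is absent, since 3 counts of the total correspond to 2.78 to 3.22 normalized counts.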

How the data were processed

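The authors sorted the cells, amplified and sequenced the libraries, trimmed the reads with cutadapt (version 1.18), removed ribosomal and vector reads with Bowtie (version 1.2.2) and SortMeRNA, mapped the rest with STAR (version 2.7.0c) to GRCm38, and counted them per gene with Rsubread. The deposited values are raw counts for 20224 genes in 5 libraries. The paper gives default parameters for counting and names no strand setting. How reads in bases shared with an antisense gene entered the counts was not tested.

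R (version 4.3.3) and edgeR (version 4.0.16) were used to fit the counts, with TMM factors of 0.974 to 1.03, filterByExpr, and the quasi-likelihood test, with Benjamini-Hochberg adjustment over 15032 genes. Normalized counts were scaled to the mean effective library size. Exon lengths and positions came from GENCODE M21 on GRCm38. Counts of every pair of libraries differed by more than sampling noise (chi-square per degree of freedom 14.2 to 35.1). Alternatives were RLE and upper-quartile scaling, DESeq2 (version 1.42.0), the likelihood ratio test, limma-voom (limma version 3.58.1), no filter, at least 10 counts in every library, an adjusted p under 0.1, the longest transcript for lengths, and leaving out each library. The tests were checked on simulated data with 200 changed genes, all with a mean of at least 50 normalized counts. The edgeR test called 19.5% of them at a 2-fold change and 81.5% at a 4-fold change. DESeq2 called 45.5% and 88%. Unchanged genes called were 5 and 10 for edgeR, and 29 and 33 for DESeq2.

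The symbol rule uses no measured value, but it, the pathway lists, and the marker lists were chosen with earlier results of these data known. Values per library were given for members with a mean of at least 50 normalized counts and for low members that define a family, and full statistics for members among the 5 with the smallest unadjusted p. Some genes that these rules name are not reported here. Of the pathway lists, the 3 genes with the smallest p in each could be named. The 2 *Gabrb1* windows, the promoters, the alpha subunit sum, and the P2X sum without *P2rx1* were chosen after their values were seen. Scripts ran in Python 3.11.15 (matplotlib 3.10.9, numpy 2.4.6, pandas 2.3.3).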

Additional observations from a re-analysis of the deposited data

How the results depend on the processing

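The count of members called was 0 under every alternative that kept both controls, including an adjusted p under 0.1. Each call also needed a mean of at least 50 normalized counts, so members under it could not be called whatever their p. Over all genes, 60 genes were called by DESeq2 and 40 by the likelihood ratio test, and between 0 and 4 when a library was left out, the 4 without control replicate 5. Members with an unadjusted p under 0.05 numbered 2 of 26 in the main test, 1 of 26 with limma-voom, and 3 of 26 with the likelihood ratio test. They numbered 1 of 13 with at least 10 counts in every library and 3 of 39 with DESeq2, which gave a p to all members. The median log2 fold change of the members ranged from -0.34 to 0.28 when a library was left out. Over the same 26 members it was -0.17 without control replicate 5 and 0.029 without control replicate 6. Of the 26 members, 13 kept their sign in every fit without a library that tested them, and 13 did not. The share over all genes was not computed. Members whose groups did not overlap, such as *Grik5* and *Gabrb1*, could hardly change sign when a single library was omitted. *Htr3b* ranged from -4.27 to 0.035, the latter without control replicate 6, and did not pass the filter on low counts without *Hif1aCKO* replicate 4. Where 1 control remained, it was assumed to vary like the other libraries. With the longest transcript as length, the summed level was 31.7 for AMPA, 7.74 for kainate, 1.98 for NMDA, 32.2 for GABA-A, and 5.92 for P2X genes, against 24.8, 5.19, 1.34, 23.9, and 3.83 with merged exons, so the order of AMPA and GABA-A turned. The alpha sum of the GABA-A genes kept non-overlapping groups with either length. No paired analysis was possible because no label pairs a control library with a *Hif1aCKO* library. Depth of 3 counts or fewer in some libraries limits 23 of the 39 members.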
